A study of Mus musculus with 64 samples.

Results

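Microglia that had refilled the brain after drug depletion were compared with microglia of untreated mice, both of the wild-type (WT) genotype. The comparison takes 9 of the 64 RNA-seq libraries of the series, chosen by their labels: 4 from adult RISP WT mice labelled PLX3397 Repopulation (repopulated WT) and 5 from naive adult RISP WT mice (naive WT). RISP is the Rieske iron-sulfur protein of respiratory complex III, encoded by Uqcrfs1, and other groups of the series are labelled as its knockout. PLX3397 is an oral inhibitor of the CSF1 receptor. The labels give neither its dose nor the day of collection, and they do not say whether each library came from a separate animal, so p-values measure the spread between these libraries. All 9 libraries hold reads of a CreERT2 transgene, at 498 to 851 CPM (counts scaled to library size by TMM) in repopulated WT and 821 to 956 CPM in naive WT, so the WT mice carried the recombinase too. The labels do not name the promoter that drives it. Cells were sorted from whole brain by CD11b and CD45. Further libraries are given beside the WT values: 4 adult WT libraries at depletion, and 4 repopulated and 4 naive adult libraries of the RISP Het genotype from the same library batch.

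Microglia are the resident macrophages of the brain parenchyma and depend on signalling through the CSF1 receptor. When the receptor is blocked most of them die, and when the block is lifted the niche refills within days, largely by division of the survivors. Macrophages at the borders of the brain, in the meninges and around vessels, also need the receptor. They carry CD11b and CD45 and can enter the same sort gate.

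The 9 libraries held 11.64 to 15.57 M counts, and each had under 1% of its counts on the noncoding transcripts Gm26917 and Yam1, whose share divides the series into library batches. Per the labels, untreated WT animals were read on a NextSeq 500 with 75 cycles and treated ones on a NextSeq 2000 with 100 cycles, so sequencer and treatment cannot be told apart within WT. By reads of 4 Y-linked genes, repopulated WT replicates 1 and 2 were female and replicates 3 and 4 male, while all 5 naive WT libraries were male. Homeostatic microglial genes were abundant in both groups: P2ry12, the ADP receptor that guides microglial processes, had 4462, 3512, 4884 and 4455 CPM in repopulated WT, against 4627, 3794, 4657, 4655 and 4935 CPM in naive WT. The T cell marker Cd3e lay between 0 and 1.1 CPM and the B cell marker Cd79a between 0.29 and 1.32 CPM over the 9 libraries. The whole lymphocyte list was not near 0, with a sum of 215 to 291 CPM in repopulated WT, against 273 to 310 CPM in naive WT. Ly6g, a neutrophil marker, lay between 0 and 1.25 CPM, while the summed neutrophil list was highest in repopulated replicates 3 and 4, at 86.3 and 53.6 CPM.

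Of 13319 genes with enough counts, 1102 differed between repopulated and naive WT at an adjusted p under 0.05 (edgeR quasi-likelihood test, two-sided, Benjamini-Hochberg over all genes), which is 8.27% of the genes tested. Expression was higher in repopulated WT for 663 genes (4.98%) and lower for 439 (3.3%), and these shares are the background for each list count below. The median log2 fold change of all genes was -0.02, and 237 of the genes called higher and 229 of those called lower were past a 2-fold change. Every repopulated library lay above every naive one for 6.76% of the genes tested, and below for 5.38%. Among the lists described here, all 54 cytosolic ribosomal protein genes, 27 of 43 interferon-response genes and 12 of 23 genes of MHC class I and peptide loading were called higher and none of them lower. All 14 border macrophage genes were called lower, and of 13 MHC class II genes 5 were called lower and 3 higher. The count rests in part on single libraries: without repopulated replicate 4 it was 717, and with the 2 male repopulated libraries alone it was 876.

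**Figure D1:**
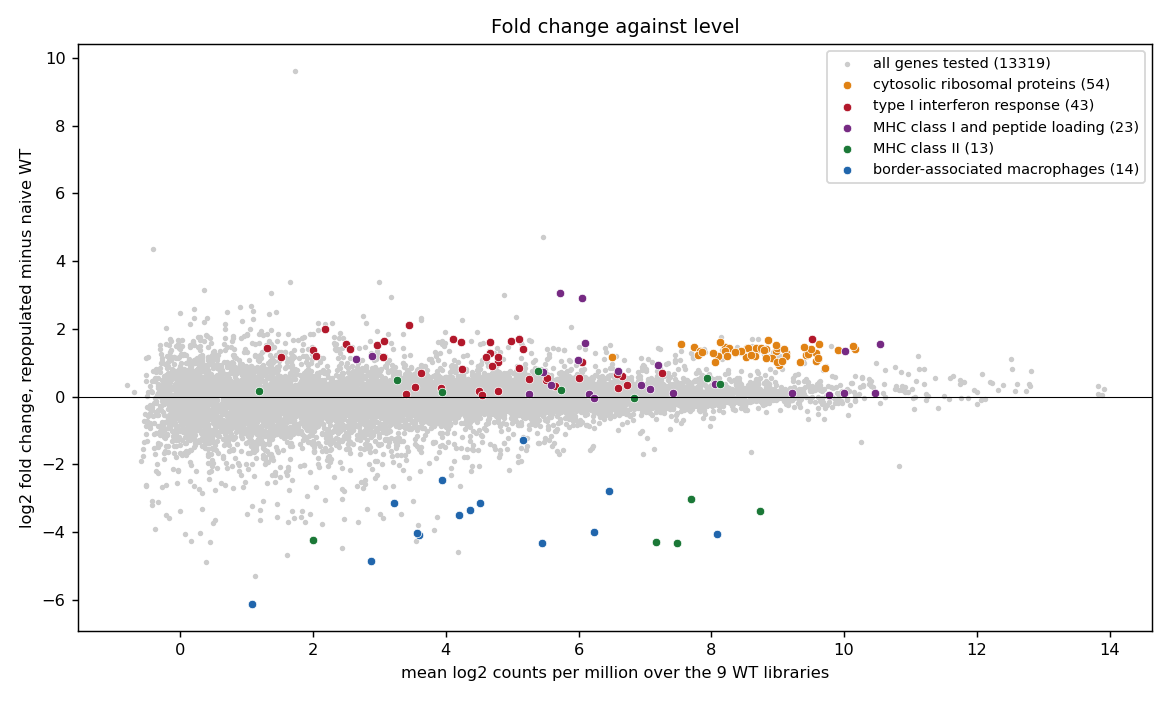
Log2 fold change of each gene tested (repopulated minus naive WT, vertical) against its mean log2 CPM over the 9 libraries (horizontal), with 5 gene lists in colour. The ribosomal protein genes form a tight group above 0 at high levels, and the border macrophage genes lie below 0.

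Cytosolic ribosomal proteins, the structural proteins of the translating ribosome, rose as a block. All 54 listed genes were called higher, between 0.84 (Rplp1) and 1.67 (Rpl32) on the log2 scale with a median of 1.33, against 4.98% of all genes called higher. Rps9, a small-subunit protein, had 1592, 1634, 1737 and 2037 CPM in repopulated WT, against 641, 659, 687, 682 and 599 CPM in naive WT. The groups lay far apart, with repopulated replicate 4 highest, and the log2 fold change was 1.41 ± 0.08 (SE; 4 against 5 libraries; edgeR adjusted p = 4.03e-06). The summed level of the 54 genes was 37130, 38580, 36450 and 45600 CPM in repopulated WT, against 15350, 16580, 16980, 16500 and 14840 CPM in naive WT. At depletion the 4 WT libraries held 17200 to 20440 CPM, near the naive range. All 54 stayed called higher under every alternative fit and with any library left out. Many ribosomal protein genes have near-identical processed pseudogenes, so the level of a single one is uncertain. In 4 equal bins by annotated transcript length, the median log2 fold change in WT was 0.05 in the shortest genes (80 to 2144 bases) and -0.06 in the longest. In Het these medians were 0.19 and -0.15. The part of transcript length in the ribosomal protein result was not tested.

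The noncoding transcripts Gas5 and Snhg12 were among the genes with the largest rise. Both are spliced host transcripts that carry small nucleolar RNAs in their introns. Gas5 had 88, 101, 88.7 and 126 CPM in repopulated WT, against 23.9, 28.9, 21.9, 25.3 and 20.7 CPM in naive WT. The groups did not overlap, and the log2 fold change was 2.05 ± 0.14 (edgeR adjusted p = 5.68e-06). Snhg12 was 3.57-fold higher (log2 1.84 ± 0.21, edgeR adjusted p = 0.000362). Ribosomal protein and snoRNA host genes are known for a terminal oligopyrimidine tract, a run of C and T at the first bases of the transcript through which growth signalling controls their translation and stability. The run of Rps9 spans positions -6 to 3, so part of it lies before the annotated start. The start sites are shown because each holds a run of C and T at or near the annotated start, in capitals (RefSeq, GRCm38.p6, 15 bases before to 20 after the annotated start, 5′ to 3′ on the gene's strand):
Rps9 (chr7:3704026-3704060, plus strand): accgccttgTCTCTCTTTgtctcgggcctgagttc
Rps24 (chr14:24490663-24490697, plus strand): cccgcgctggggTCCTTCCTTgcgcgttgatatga
Rps27 (chr3:90213629-90213663, minus strand): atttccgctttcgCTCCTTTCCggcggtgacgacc
Rps6 (chr4:86857348-86857382, minus strand): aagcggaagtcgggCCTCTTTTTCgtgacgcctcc
Gas5 (chr1:161035151-161035185, plus strand): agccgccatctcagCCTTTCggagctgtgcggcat
Snhg12 (chr4:132308663-132308697, plus strand): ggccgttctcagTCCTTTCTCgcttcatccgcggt
A run of at least 6 C or T bases reaching within 5 bases of the start was found in 20 of the 40 ribosomal protein genes with a RefSeq promoter (50%), against 23% of all 27025 promoters. It was found in 9 of 38 nuclear genes of respiratory complexes I and III (23.7%). All 40 ribosomal protein genes were called higher, with or without the run.

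**Figure D2:**
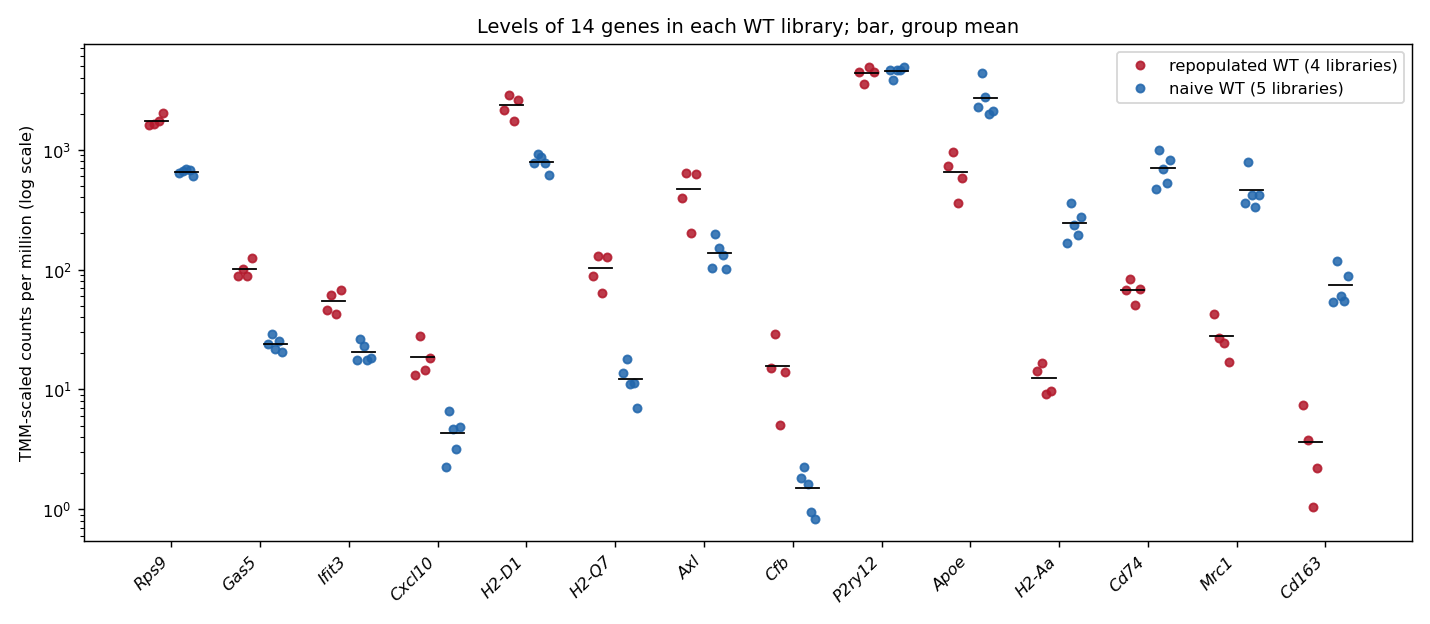
TMM-scaled CPM (log axis) of 14 genes in each library, repopulated WT in red on the left and naive WT in blue on the right of each pair, with a bar at each group's mean. The groups are apart for every gene drawn except P2ry12, whose ranges overlap.

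Genes induced by type I interferon, the antiviral cytokine family, were higher in repopulated WT. Of 43 measured list members 27 were called higher and none lower, with a median log2 fold change of 1.02 and all 43 above 0. Ifit3, which binds viral RNA complexes, had 46.3, 61.6, 42.9 and 67.9 CPM in repopulated WT, against 17.7, 26.3, 23, 17.7 and 18.3 CPM in naive WT. The ranges did not overlap, and the log2 fold change was 1.40 ± 0.17 (edgeR adjusted p = 0.00054). Ifit3b is a near-identical copy, so the share of each is uncertain. Cxcl10, a chemokine for activated T cells, had 13.3, 28.1, 14.6 and 18.3 CPM in repopulated WT, against 2.26, 6.6, 4.65, 3.16 and 4.85 CPM in naive WT. Its log2 fold change was 2.10 ± 0.32 (edgeR adjusted p = 0.00218), with no overlap. Usp18, the protease that removes ISG15 and damps interferon signalling, was 3.25-fold higher (edgeR adjusted p = 0.000279), and Lgals3bp, a secreted galectin-binding protein, 3.27-fold higher (edgeR adjusted p = 7.24e-05). The transcription factors Irf7 (log2 1.62 ± 0.29) and Irf9 (0.26 ± 0.06) also passed, while Stat2 did not (0.51 ± 0.15, edgeR adjusted p = 0.0561). The summed level of the list was 2661, 3296, 2424 and 3479 CPM in repopulated WT, against 1284, 1663, 1503, 1337 and 1323 CPM in naive WT. With the male repopulated libraries alone, 13 of 43 were called higher and the median was 0.91.

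The upstream sequences of 4 of these genes are shown because they hold the interferon-stimulated response element, searched as GAAA and GAAA separated by 2 bases on either strand, in capitals (RefSeq, GRCm38.p6, the 250 bases before the start, 5′ to 3′ on the gene's strand):
Ifit3 (chr19:34583279-34583528, plus strand): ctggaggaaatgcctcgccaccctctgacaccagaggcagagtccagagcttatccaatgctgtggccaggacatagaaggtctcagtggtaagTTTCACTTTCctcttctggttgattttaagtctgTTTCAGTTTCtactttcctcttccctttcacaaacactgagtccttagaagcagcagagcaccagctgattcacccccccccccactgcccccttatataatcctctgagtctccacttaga
Cxcl10 (chr5:92348890-92349139, minus strand): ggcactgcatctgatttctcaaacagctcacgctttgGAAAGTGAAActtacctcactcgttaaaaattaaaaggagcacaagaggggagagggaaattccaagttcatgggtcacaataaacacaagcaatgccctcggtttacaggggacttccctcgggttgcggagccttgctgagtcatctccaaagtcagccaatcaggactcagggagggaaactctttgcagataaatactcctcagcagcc
Rsad2 (chr12:26456453-26456702, minus strand): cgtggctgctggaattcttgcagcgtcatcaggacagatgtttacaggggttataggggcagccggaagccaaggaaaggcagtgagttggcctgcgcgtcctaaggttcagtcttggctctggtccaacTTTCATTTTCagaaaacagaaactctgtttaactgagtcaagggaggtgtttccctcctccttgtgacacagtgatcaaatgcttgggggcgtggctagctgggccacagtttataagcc
Isg15 (chr4:156200819-156201068, minus strand): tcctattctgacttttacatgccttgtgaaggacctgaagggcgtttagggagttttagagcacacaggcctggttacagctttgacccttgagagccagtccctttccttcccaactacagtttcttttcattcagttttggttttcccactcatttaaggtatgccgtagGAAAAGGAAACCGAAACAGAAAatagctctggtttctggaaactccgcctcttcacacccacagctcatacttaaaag
In Ifit3 and Rsad2 the element reads on the opposite strand, as TTTC and TTTC, while Isg15 has overlapping copies. Of 35 list members with a promoter in the table, 21 held the element within 250 bases before to 50 after the start (60%), against 3.99% of all promoters. Among the members called higher it was 13 of 20 (65%). A match is a description of these bases and does not show that a factor was bound.

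MHC class I, which shows peptides from inside the cell to CD8 T cells, moved in the same direction as the interferon list. Of 23 measured class I and peptide-loading genes 12 were called higher and none lower (median log2 0.37). H2-D1, a classical heavy chain, had 2141, 2884, 1747 and 2606 CPM in repopulated WT, against 772, 924, 872, 781 and 616 CPM in naive WT. The groups did not overlap, and the log2 fold change was 1.56 ± 0.15 (edgeR adjusted p = 9.38e-05). Its light chain B2m was 2.30-fold higher (log2 1.20 ± 0.10, edgeR adjusted p = 1.85e-05). The nonclassical heavy chain H2-Q7 had 87.5, 130, 64.2 and 128 CPM in repopulated WT, against 13.6, 18, 11.1, 11.3 and 6.97 CPM in naive WT. That is a log2 fold change of 3.06 ± 0.28 (edgeR adjusted p = 5.85e-05), and H2-Q6 followed at 2.92 ± 0.24. H2-Q4, H2-Q6 and H2-Q7 are near-identical copies, so reads may be shared among them. The peptide transporter subunit Tap1 (0.94 ± 0.10), the immunoproteasome subunit Psmb8 (0.34 ± 0.08) and Nlrc5, the transactivator of class I genes (1.11 ± 0.25), were called higher too.

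MHC class II shows peptides from taken-up material to CD4 T cells, and its genes were called in both directions. Of 13 measured genes 5 were called lower, against 3.3% of all genes called lower: H2-Aa, H2-Ab1, H2-Eb1, the invariant chain Cd74 and Ciita, the class II transactivator. H2-Aa had 14.2, 16.8, 9.16 and 9.78 CPM in repopulated WT, against 165, 361, 237, 193 and 275 CPM in naive WT. Every repopulated library was below every naive one, and the log2 fold change was -4.30 ± 0.28 (edgeR adjusted p = 5.68e-06). Cd74 had 67.9, 83.9, 50.8 and 68.4 CPM in repopulated WT, against 473, 993, 690, 524 and 820 CPM in naive WT (log2 -3.38 ± 0.24, edgeR adjusted p = 9.56e-06). The other direction was taken by H2-DMa, a chain of the peptide editor (0.54 ± 0.06), H2-Oa, which restrains that editor (0.76 ± 0.13), and the costimulator Cd86 (0.38 ± 0.06), which were called higher. Under every alternative 5 members of the list were called lower.

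Both MHC classes share an upstream module that ends in a Y box, bound by NF-Y. The motif was searched as GATTGG on either strand, and whether a match is the box of that module was not tested. The upstream bases of a pair of genes from each class are shown because the classes moved apart although both hold a match, in capitals (RefSeq, GRCm38.p6, the 200 bases before the start):
H2-Aa (chr17:34287824-34288023, minus strand): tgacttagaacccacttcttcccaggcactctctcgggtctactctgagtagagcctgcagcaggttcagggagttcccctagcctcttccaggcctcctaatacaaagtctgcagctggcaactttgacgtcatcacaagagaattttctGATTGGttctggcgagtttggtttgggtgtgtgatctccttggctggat
H2-Eb1 (chr17:34305667-34305866, plus strand): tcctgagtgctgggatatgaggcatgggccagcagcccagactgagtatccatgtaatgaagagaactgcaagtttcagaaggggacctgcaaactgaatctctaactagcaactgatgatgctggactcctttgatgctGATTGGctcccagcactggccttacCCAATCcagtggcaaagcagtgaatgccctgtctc
H2-D1 (chr17:35262894-35263093, plus strand): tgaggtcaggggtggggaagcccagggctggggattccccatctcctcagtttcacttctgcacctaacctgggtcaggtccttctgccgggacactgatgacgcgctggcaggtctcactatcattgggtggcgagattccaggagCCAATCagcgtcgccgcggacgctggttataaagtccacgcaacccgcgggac
H2-Q6 (chr17:35424650-35424849, plus strand): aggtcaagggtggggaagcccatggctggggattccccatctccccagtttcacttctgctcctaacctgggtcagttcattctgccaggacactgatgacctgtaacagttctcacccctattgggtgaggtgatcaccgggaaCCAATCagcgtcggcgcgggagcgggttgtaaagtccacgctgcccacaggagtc
In H2-D1 and H2-Q6 an ATTGG without the leading G also lies upstream of the match, and the search did not count it. Among list members with a promoter in the table, GATTGG was found in 7 of 8 of the class II list (87.5%). In the list of class I and peptide loading it was found in 11 of 19 (57.9%), against 18.2% of all promoters.

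Genes of border-associated macrophages showed the deepest fall. All 14 listed genes were called lower, with a median log2 fold change of -3.75. Mrc1, the mannose receptor, had 42.5, 26.9, 24.6 and 17.1 CPM in repopulated WT, against 358, 783, 421, 334 and 419 CPM in naive WT. The groups lay far apart, with naive replicate 2 highest, and the log2 fold change was -4.06 ± 0.34 (edgeR adjusted p = 2.75e-05). Cd163, the scavenger receptor for haptoglobin-haemoglobin complexes, had 7.43, 3.79, 1.05 and 2.21 CPM in repopulated WT, against 53.7, 118, 59.9, 54.8 and 88.6 CPM in naive WT (log2 -4.33 ± 0.49, edgeR adjusted p = 0.000279). F13a1, a coagulation factor subunit (-3.99 ± 0.36), and Lyve1, a hyaluronan receptor (-3.35 ± 0.54), were lower as well, as were the lectin genes Mgl2 (-4.60 ± 0.47), Clec10a (-4.04 ± 0.41) and Clec4n (-4.09 ± 0.29). In such bulk samples, fewer cells of a type and less RNA per cell cannot be told apart. The summed level of the 14 genes was 139, 102, 80.5 and 70 CPM in repopulated WT, against 808, 1774, 931, 760 and 966 CPM in naive WT. The 5 class II genes that fell move with this list, and naive replicate 2 was the highest library for both sums. The part of border macrophages in the class II result was not tested.

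Of 15 monocyte and marrow-derived macrophage genes 6 were called lower and 1, Ms4a4c, higher. Ccr2, the receptor that draws monocytes out of the marrow, had 4.58, 4.3, 4.62 and 5.18 CPM in repopulated WT, against 22.2, 41.7, 30.8, 27.3 and 23.3 CPM in naive WT (log2 -2.65 ± 0.21, edgeR adjusted p = 1.6e-05). Of 12 endothelial and pericyte genes 7 were called lower (median -1.52), with Cldn5, a tight-junction protein of brain vessels, at -1.57 ± 0.16 (edgeR adjusted p = 0.000152). With the spread taken from all libraries of the batch, 1 of the 12 was called. Of 17 lymphocyte genes 12 had too few counts to test. Of the 5 measured Cd4 alone was called, lower in repopulated WT (-3.62 ± 0.40), a fall near the border macrophage median of -3.75. The T cell marker Cd3e was low in all 9 libraries, as given above, and the cell type behind the fall of Cd4 was not tested. Among 7 neutrophil, 13 oligodendrocyte, 12 astrocyte, 6 neuronal and 7 red-cell genes none was called in this edgeR fit. Of these 45 genes, 4 had an unadjusted p under 0.05 and 2 were called by DESeq2. With sex as a covariate edgeR called 5 oligodendrocyte and 2 astrocyte genes lower, and 1 neutrophil and 2 red-cell genes higher. With the male libraries alone it called 2 astrocyte genes lower, and 1 neutrophil and 1 red-cell gene higher. Red-cell genes summed to 8277, 5348, 13140 and 14680 CPM in repopulated WT, against 4795 to 10190 CPM in naive WT. Oligodendrocyte genes summed to 1381, 1396, 578 and 395 CPM in repopulated WT, against 738 to 1923 CPM in naive WT. The male replicates 3 and 4 were thus the extremes, so sex and these sums cannot be told apart within repopulated WT. The measured neutrophil genes had a median log2 fold change of 1.57, with 6 of 7 above 0. Their list summed to 10.0, 2.77, 86.3 and 53.6 CPM in repopulated WT, against 13.6, 28.3, 5.46, 12.2 and 28.7 CPM in naive WT, so repopulated replicates 3 and 4 were the highest of the 9 libraries.

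**Figure D3:**
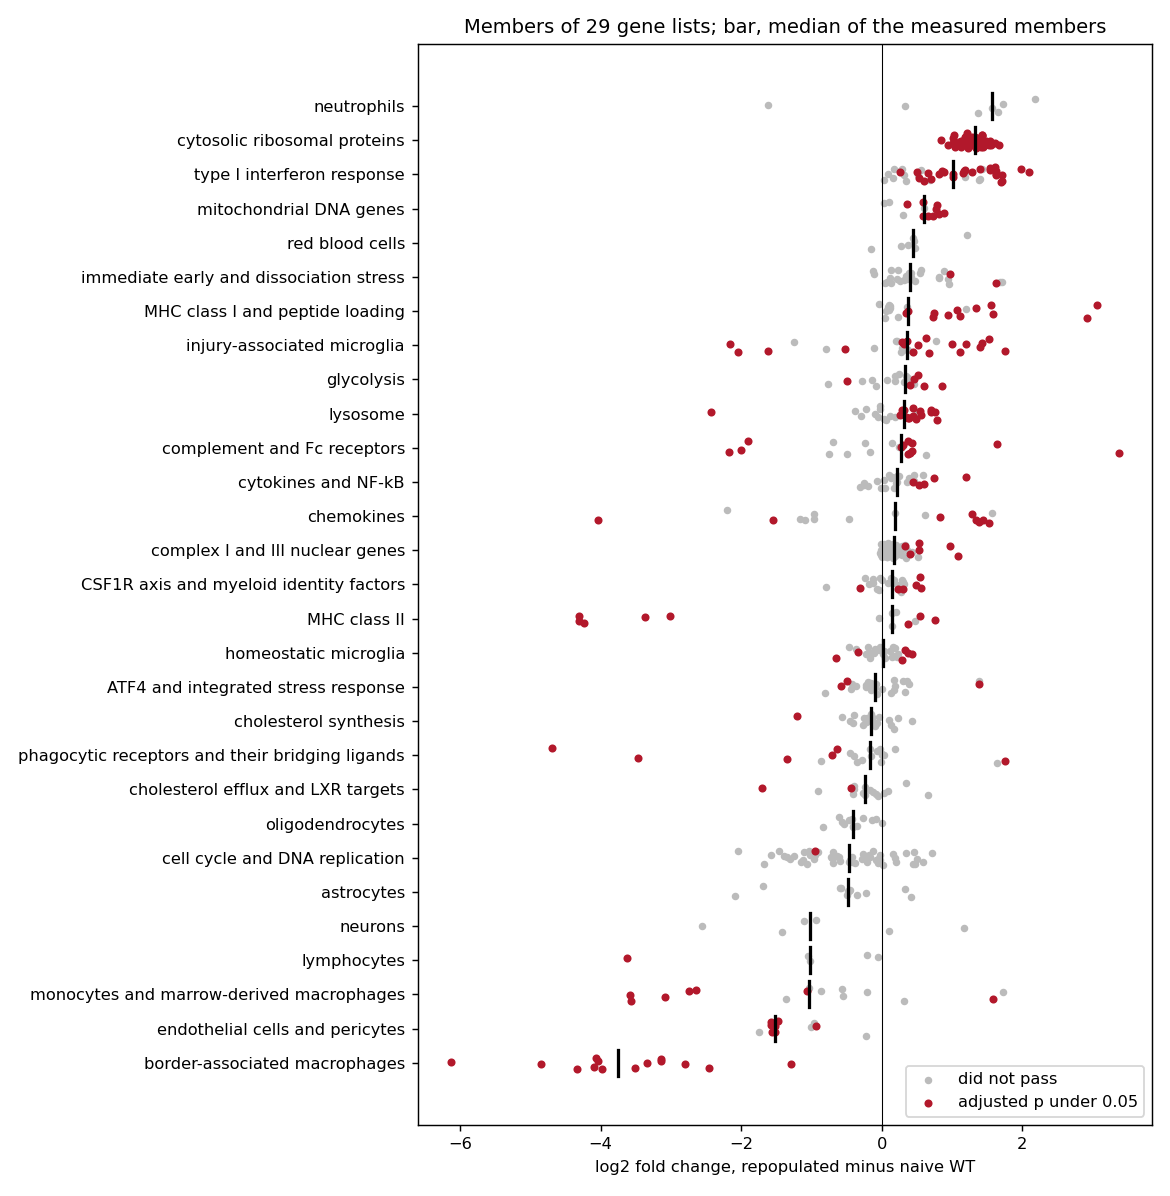
Log2 fold change (repopulated minus naive WT) of the measured members of 29 gene lists, red where the adjusted p was under 0.05 and grey otherwise, with a bar at each list's median. Ribosomal proteins sit to the right of 0 without exception and border macrophage genes to the left without exception.

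Most homeostatic microglial genes did not pass the test. Of 28 measured genes 4 were called higher and 2 lower, with a median log2 fold change of 0.01. Sparc, a secreted matrix protein (0.33 ± 0.06), and Olfml3, a secreted olfactomedin protein (0.43 ± 0.07), were higher with P2ry6 and Itgb5, whose call was lost with single libraries left out, and Fscn1, an actin-bundling protein (-0.65 ± 0.12), and Fcrls (-0.34 ± 0.09) were lower. P2ry12 differed by -0.07 ± 0.10, Tmem119 by 0.18 ± 0.09, Cx3cr1 by -0.22 ± 0.11 and Sall1 by -0.18 ± 0.07, and none of these passed. Csf1r, the target of the drug, had 14810, 14440, 13730 and 16500 CPM in repopulated WT, against 13770, 12180, 14830, 13450 and 15710 CPM in naive WT. The ranges overlapped (log2 0.08 ± 0.08, edgeR adjusted p = 0.624).

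Genes raised in microglia around plaques and in demyelinated tissue were split. Of 31 measured genes 14 were called higher and 4 lower (median 0.36). Axl, a receptor tyrosine kinase for apoptotic cells, had 394, 637, 203 and 631 CPM in repopulated WT, against 102, 197, 150, 134 and 100 CPM in naive WT. The groups came close, with repopulated replicate 3 just above naive replicate 2, and the log2 fold change was 1.76 ± 0.32 (edgeR adjusted p = 0.00647). Cd52 (1.53 ± 0.15), the integrin chain Itgax (1.39 ± 0.26), the cystatin Cst7 (1.11 ± 0.25) and the checkpoint receptor Lag3 (0.99 ± 0.09) were higher as well. Apoe, the main lipid carrier of the brain and a leading member of this programme, had 731, 949, 362 and 581 CPM in repopulated WT, against 2289, 4334, 2756, 1989 and 2093 CPM in naive WT. It was 4.13-fold lower without overlap (log2 -2.04 ± 0.31, edgeR adjusted p = 0.00202). Igf1 (-2.16 ± 0.33), Lyz2 (-1.62 ± 0.21) and Ccl6 (-0.53 ± 0.14) were lower too. Border macrophages are known to express Apoe, Igf1 and Lyz2, and naive replicate 2, highest for that marker list, was highest for all of these. Their part in the fall was not tested. Spp1 (0.78 ± 0.37), Lpl (0.33 ± 0.19) and Clec7a (0.32 ± 0.26) did not pass.

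Of 21 complement and Fc receptor genes 9 were called higher and 3 lower, and 9 did not pass (median log2 fold change 0.27, from -2.18 to 3.38). Cfb, factor B of the alternative complement pathway, had 15.2, 29, 5.06 and 14 CPM in repopulated WT, against 1.83, 2.27, 1.61, 0.957 and 0.834 CPM in naive WT. No values overlapped (log2 3.38 ± 0.47, edgeR adjusted p = 0.00125). Fcgr4, an activating IgG receptor, was 3.11-fold higher (1.64 ± 0.22, edgeR adjusted p = 0.000872), and the C1q chains C1qa, C1qb and C1qc rose by 0.37 to 0.43 on the log2 scale. Cd93, Cfp (properdin) and C2 were lower. Among 21 phagocytic receptors and bridging ligands Axl was the member called higher, and the scavenger receptors Msr1 (-3.47 ± 0.32) and Stab1 (-1.34 ± 0.17), the bridging ligand Gas6 (-0.64 ± 0.10), Dock1 and Timd4 were called lower. Naive replicate 2, highest for the border macrophage list, was also high for Gas6, with 380 CPM (276 to 303 CPM in the other naive libraries). The part of border macrophages in the genes called lower here was not tested.

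Of 29 lysosomal genes 15 were called higher and 1, the transcription factor Tfec, lower, while 13 did not pass. The log2 fold changes ran from -2.43 to 0.79, with a median of 0.31 and 8 members below 0. Ctss, cathepsin S, had 8452, 9507, 8646 and 10290 CPM in repopulated WT, against 5776, 5178, 5944, 5423 and 4900 CPM in naive WT. Every repopulated library was above every naive one (log2 0.75 ± 0.08, edgeR adjusted p = 0.000123). Ctsh, another cysteine cathepsin, was 1.73-fold higher (edgeR adjusted p = 9.08e-06), and the membrane proteins Lamp1 (0.29 ± 0.06) and Lamp2 (0.35 ± 0.07) moved less. The summed lysosomal level was 30880 to 37030 CPM in repopulated WT, against 23060 to 25580 CPM in naive WT.

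Among 17 chemokine genes 6 were called higher and 2 lower. Ccl3, an inflammatory chemokine, had 44.5, 66.6, 92.8 and 97.3 CPM in repopulated WT, against 31.9, 31, 30.5, 17.4 and 27.5 CPM in naive WT (log2 1.44 ± 0.24, edgeR adjusted p = 0.00389). Ccl4 had 27.1, 33.9, 84 and 76.7 CPM in repopulated WT, against 16.4, 19.9, 20.7, 14.4 and 24.6 CPM in naive WT (log2 1.52 ± 0.33, edgeR adjusted p = 0.0157). Repopulated replicates 3 and 4 were the high ones for both, and they were also high for the summed genes of tissue dissociation, with 5805, 6873, 10620 and 12090 CPM in repopulated WT, against 5565, 6554, 5808, 5292 and 9027 CPM in naive WT. Of 29 such genes 2, Egr2 and Zfp36, were called higher, against 4.98% of all genes called higher. The number called was 10 with sex as a covariate. Of the 29 genes 27 were above 0, with a median log2 fold change of 0.41, and of 0.78 with the male libraries alone. Replicates 3 and 4 were also the highest for the summed neutrophil genes. The part of dissociation and of neutrophil RNA in the chemokine result was not tested. Ccl24 (-1.54 ± 0.30) and Ccl8 (-4.04 ± 0.87) were lower. Of 26 cytokine and NF-kB genes 5 were called higher: the receptor Tlr2 (0.74 ± 0.10), the adhesion molecule Icam1 (0.53 ± 0.07), Il1a (0.60 ± 0.10), Il6 (1.20 ± 0.24) and Relb (0.44 ± 0.09).

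Energy metabolism showed modest shifts. Of 13 protein-coding genes of mitochondrial DNA 9 were called higher (median 0.61), led by the cytochrome oxidase subunits mt-Co3 (0.88 ± 0.11) and mt-Co1 (0.81 ± 0.12), and 3 with the male repopulated libraries alone. Of 46 nuclear genes of complexes I and III 6 were called higher, among them Uqcrh (1.09 ± 0.09) and Ndufa6 (0.96 ± 0.12). Of the 46 genes 42 were above 0, with a median of 0.17. In Het 26 of them were called higher (median 0.40), against 9.11% of all genes in Het. Uqcrfs1 had 53.1, 49.1, 67.2 and 58.9 CPM in repopulated WT, against 46.4, 44.4, 41.6, 36.9 and 35.9 CPM in naive WT. The difference was small (log2 0.47 ± 0.12, edgeR adjusted p = 0.0346), and the call was lost under 11 of 20 other settings. Of 20 glycolysis genes 5 were called higher, among them the lactate exporter Slc16a3 (0.86 ± 0.09), and Hk1 was lower. Of 54 cell cycle genes 43 were below 0 (median -0.46), and 1 was called, Ccnd1, which encodes cyclin D1. With sex as a covariate 5 were called lower and 1 higher, and with the male libraries alone 4 were called lower (median -0.87). In Het the median was -0.06, with 1 gene called higher and 2 lower. The summed level of the list overlapped, with 870 to 1093 CPM in repopulated WT, against 956 to 1418 CPM in naive WT. Ccnd1 had 98.2, 110, 123 and 104 CPM in repopulated WT, against 193, 208, 227, 244 and 172 CPM in naive WT, and its log2 fold change was -0.95 ± 0.11 (edgeR adjusted p = 0.000379). Mki67, a marker of dividing cells, had 3.25, 3.06, 1.4 and 0.863 CPM in repopulated WT, against 4.94, 8.53, 4.72, 4.12 and 1.67 CPM in naive WT, and did not pass (edgeR adjusted p = 0.224). The lists of cholesterol synthesis, cholesterol efflux and the ATF4 stress response held 23, 17 and 27 measured genes. Of these 1, 2 and 2 were called lower, against 3.3% of all genes. Ppp1r15a of the last list was called higher. Of 24 genes of the CSF1R axis and myeloid identity 5 were called higher, among them Cebpb and Itgam, which encodes the CD11b used for sorting, and Maf was lower. Itgam, Maf, Cebpb and Ppp1r15a lost their calls with single libraries left out.

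Single genes outside these groups stood out by size. St8sia1, the sialyltransferase that makes ganglioside GD3, had 15.5, 21.7, 24.3 and 26.6 CPM in repopulated WT, against 4.3, 3.16, 4.96, 6.18 and 3.48 CPM in naive WT. The groups lay apart (log2 2.30 ± 0.23, edgeR adjusted p = 0.000105). Chst2, a sulfotransferase (1.91 ± 0.29), and Olfm4, a secreted glycoprotein (1.85 ± 0.23), were higher as well. Plbd1, a phospholipase-like protein, was lower (-3.80 ± 0.35). Xist, the RNA of the inactive X chromosome, had 152, 210, 14.5 and 1.63 CPM in repopulated WT, against 1.69, 13.3, 0.621, 1.25 and 1.14 CPM in naive WT. Its high values were those of the female libraries, and with sex as a covariate it was no longer called.

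The WT libraries labelled PLX3397 Depletion show which levels lay outside the naive range at that stage. Class II genes summed to 1750 to 2956 CPM in naive WT, 836 to 912 CPM at depletion and 991 to 1020 CPM at repopulation. Border macrophage genes were at 138 to 283 CPM at depletion, and lysosomal genes, at 32930 to 34380 CPM, were near their repopulation level. Interferon genes, at 1325 to 1640 CPM, stayed within the naive range at depletion, and the ribosomal protein sum was slightly above it. H2-Q7 had 10.4 to 20.9 CPM at depletion and Cfb 0 to 1.45 CPM, both near the naive values. The whole list of class I and peptide loading was above its naive range at depletion, at 7110 to 7708 CPM against 5907 to 6645 CPM. Its repopulation sums were higher still, at 8420 to 10730 CPM. Injury-associated microglial genes summed to 39460 to 45390 CPM at depletion, against 27910 to 31700 CPM in naive WT. These levels share the naive libraries with the comparison above and were not tested. By the labels the depletion libraries also differ from naive WT in sequencer, and depletion replicates 3 and 4 were female by the Y-linked genes.

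**Figure D4:**
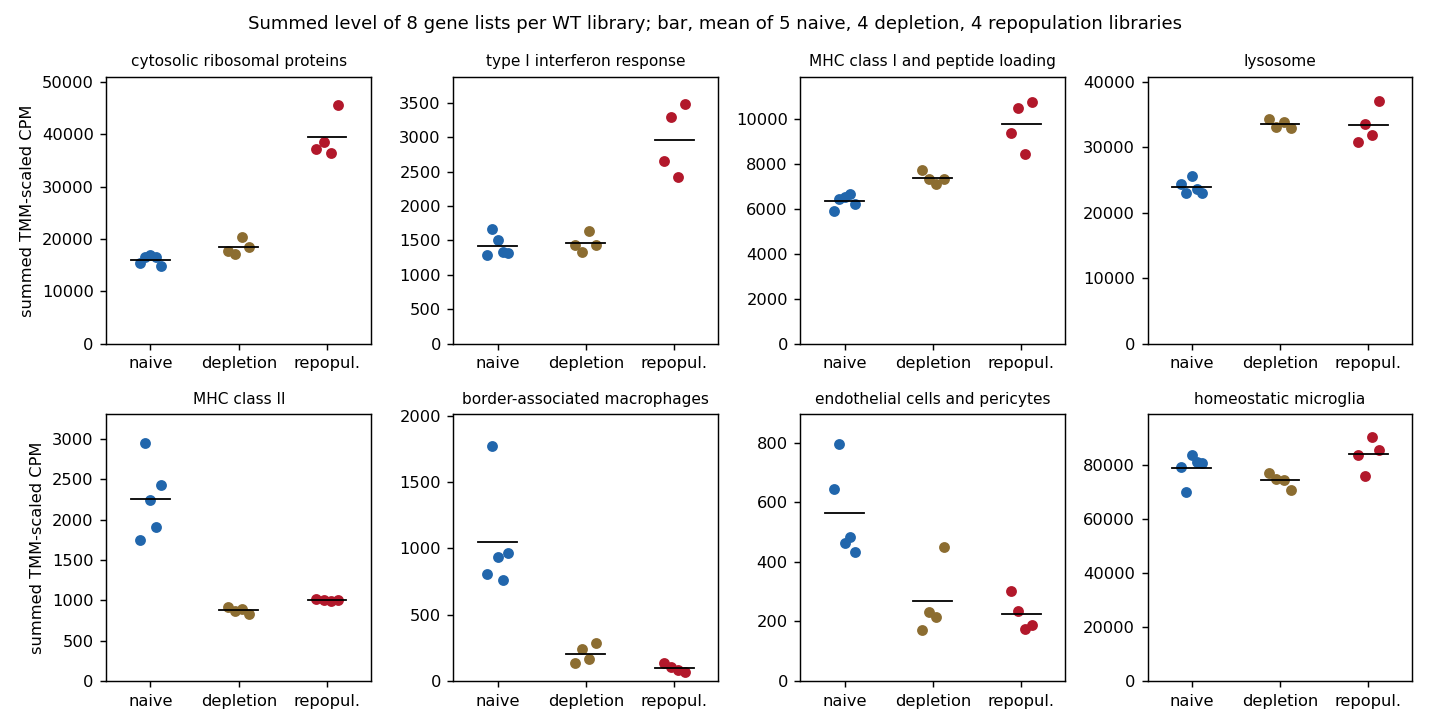
Summed TMM-scaled CPM of 8 gene lists in each WT library, by stage from naive (5 libraries) through depletion (4) to repopulation (4), with a bar at each mean. Ribosomal protein and interferon sums are high at repopulation alone, lysosomal sums are high at both later stages, and class II and border macrophage sums are low at both.

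Repopulation in RISP Het mice was tested with other animals' libraries, which share no control with the WT comparison. By the Y-linked genes, repopulated Het replicate 4 and naive Het replicate 1 were male and the other Het libraries used were female. Per the labels, untreated knockout and WT animals were read on the NextSeq 500 and the others on the NextSeq 2000. The sequencer of each single Het library was not checked. There 2525 of 14026 genes were called (18%), 1278 higher (9.11%) and 1247 lower (8.89%). Of the 663 genes called higher in WT, 553 were called higher in Het, which is 83.4% of the WT calls and 43.3% of the Het calls, and none was called lower. Of the 439 genes called lower in WT, 343 were called lower in Het, which is 78.1% of the WT calls and 27.5% of the Het calls, and 1, Dgkz, was called higher, named here after its values were seen. Rps9 had 1484 to 1835 CPM in repopulated Het, against 518 to 606 CPM in naive Het, and all 54 ribosomal protein genes were called higher (median 1.53). Of the interferon list 33 of 43 were called higher, and all 14 border macrophage genes and the same 5 class II genes were called lower. Homeostatic genes gave 7 higher and 11 lower in Het, against the 4 and 2 of WT. The difference between the effects, WT minus Het, was called for 0 of 14026 genes in edgeR, with 1338 at an unadjusted p under 0.05 and 34 called by DESeq2. It does not show that the effects were alike: for Cfb the difference was -1.32 ± 0.62 and for H2-D1 -0.45 ± 0.19 on the log2 scale. Without naive WT replicate 5, 85 genes were called.

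**Figure D5:**
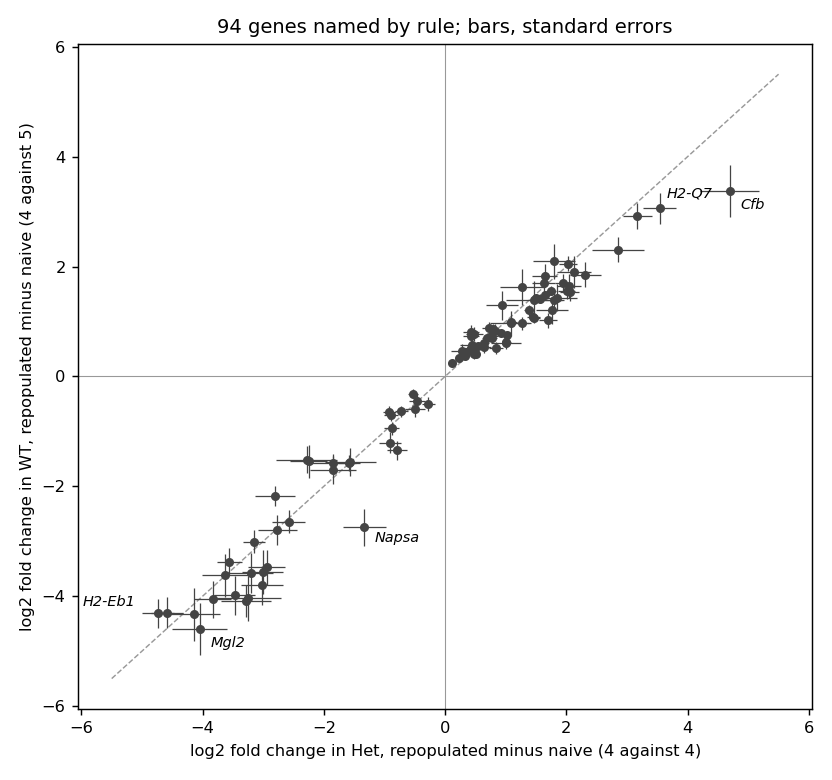
Log2 fold change (repopulated minus naive) in WT, vertical, against that in Het, horizontal, for 94 genes named by rule (Xist is left out), with standard errors and the line of equal change. Every gene lies on the same side of 0 in both genotypes, and Napsa and Cfb are among those farthest from the line.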

How the data were processed

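RNA-seq counts per gene were deposited by the authors for 64 libraries. Per the submitters' processing notes the tools were bcl2fastq 2.20, Trim Galore 0.6.7, STAR 2.6.1d and Salmon 1.5.2, with the build GRCm38; which of them made the deposited counts is not given in the sources used here. Per the labels, libraries came from 5 to 10 ng of total RNA with a stranded kit.

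The fit took the 9 WT libraries, 1 mean per group, no covariate. Genes were kept by filterByExpr of edgeR 4.0.16 (minimum count 10, minimum total 15), scaled by TMM and tested with glmQLFit and glmQLFTest in R 4.3.3, two-sided, with Benjamini-Hochberg adjustment and a threshold of 0.05. Printed CPM use 1 TMM scaling over the 34 libraries of the batch, so they differ slightly from the fitted folds. The WT minus Het difference was fitted over 17 libraries. DESeq2 1.42.0 was an alternative, with other scalings, filters, spreads, a replicate block, sex, thinned counts and left-out libraries. No 2 libraries were duplicates by a chi-square comparison. The fit was tested on simulated data.

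Named genes were the 10 called genes of largest fold in each direction with a mean log2 CPM no lower than 3 (symbols of the kinds Gm-number, Rik, AC- or BC-number and ENSMUSG left out), up to 4 called members of each of 29 lists by smallest p, and Uqcrfs1; other members are named where their list is described, and some genes are not reported here. Members and lists were chosen with earlier results of these data known, so no set test was run. Further alternatives were added after seeing the data: male libraries, leaving out naive replicates 2 and 5, and sex in the Het difference. Promoters came from RefSeq (GRCm38.p6), 250 bases before to 50 after the start, and gene lengths from GENCODE.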

Additional observations from a re-analysis of the deposited data

Results flagged for a closer look

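Among the named genes, 190 groups of library values were tested for a value far from the others, and 15 were found; chance gives about 1 in 20 groups. Naive WT replicate 2 gave 8 of them, all high. It had 783 CPM of Mrc1 (334 to 421 CPM in the other naive libraries), 56.7 CPM of Mgl2 (19.7 to 27.8), 34.4 CPM of Clec10a (13.1 to 19.2), 232 CPM of Dab2 (107 to 133), 269 CPM of Pltp (137 to 173), 13.4 CPM of Ccl24 (7.69 to 9.32), 380 CPM of Gas6 (276 to 303) and 13.3 CPM of Xist (0.62 to 1.69). The same library had the highest sum of border macrophage genes.

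Naive WT replicate 5 was high for Ppp1r15a, with 48.6 CPM (15.7 to 24.5 CPM in the other naive libraries), Slc7a5, with 258 CPM (187 to 202), and Snhg12, with 6.14 CPM (3.39 to 3.6). Naive WT replicate 3 had 74.3 CPM of Cxcl16 (61.7 to 64.3). Among the repopulated WT libraries, replicate 2 had 48.6 CPM of H2-Ab1 (38.9 to 39.8 in the others), replicate 4 had 91.1 CPM of Uqcrh (78.1 to 80.2) and replicate 3 had 3290 CPM of Itgb5 (4118 to 4169). Without naive replicates 2 and 5, 830 genes were called, 533 higher and 297 lower, an alternative added after the data were seen.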

How the results depend on the processing

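The 1102 calls (663 higher, 439 lower) became 1674 with the DESeq2 Wald test (752 lower) and 610 with the spread shared by all 64 libraries (410 higher, 200 lower). Leaving out 1 library at a time, the count ran from 717 to 1182, higher from 438 to 722 and lower from 279 to 465; repopulated replicate 4 gave the lowest of each, and without repopulated replicate 2 there were 291 lower. The WT minus Het difference, called for no gene, gave 34 genes with DESeq2, and 0 to 85 with a library left out: 85 without naive WT replicate 5 and 1 without repopulated WT replicate 1. The causes were not tested.

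Deviations from the group mean in same-numbered libraries had correlations of 0.07, 0.16, 0.02 and -0.01 over 8942 genes. Libraries of unlike number had correlations from -0.185 to 0.246. So few values cannot decide whether the numbers pair the libraries. With a replicate block 977 genes were called, 576 higher and 401 lower, of which 793 were also called without it, and the WT minus Het difference was called for 30. With sex as a covariate 1182 genes were called, 764 of them among the 1102, and with male libraries only 876, of which 640 were among the 1102.

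Of the 95 named genes 65 kept their call in every alternative, 83 with each library left out, and none reversed. Xist, Uqcrfs1, Itgam, Itgb5, Maf, Abca1, Slc7a1, Slc7a5, Ppp1r15a, Zfp36, Cebpb and Gapdh lost it with a single library left out. The log2 fold change ran from 2.64 to 3.67 for Cfb, -5.54 to -3.92 for Cd163, -4.84 to -3.73 for Clec10a, -4.21 to -3.38 for Cd38 and -4.50 to -3.29 for Ms4a7 over the alternatives. With the spread of all 64 libraries the lists of chemokines, mitochondrial DNA genes and CSF1R axis had 1, 2 and 0 members called higher. At 11.64 to 15.57 M counts, 3 counts in a library are 0.193 to 0.258 unscaled CPM, and genes near that level could not be compared; the limit covers counting error only.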

Other observations

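Gene families taken by symbol, after the values were seen and without a test of the family, are given with the share of all genes called higher, 4.98%, as background. Of all 83 measured genes named as cytosolic ribosomal proteins 78 were called higher. Among the rest were Rps27l, Rps4l, Rpl3l and Rpl39l, named as ribosomal protein-like copies, with log2 fold changes of 0.26, -0.18, 1.01 and -0.61. All 5 translation elongation factor genes (Eef1a1, Eef1b2, Eef1d, Eef1g and Eef2) were called higher, with a median of 0.87, and 6 of 12 subunits of initiation factor 3, among them Eif3e and Eif3h. Of 77 mitochondrial ribosomal protein genes 4 were called higher and the median was 0.02, and of 38 proteasome subunits 2 were called higher (median -0.04), both close to that background share. Of 10 measured small nucleolar RNA host genes Gas5, Snhg12, Snhg3 and Snhg8 were called higher.

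The interferon-linked genes did not all move. Of 14 measured Gbp, Irgm and related GTPase genes, which interferon gamma induces strongly, Irgm1 was called higher and Gbp7 lower (median 0.15), while 9 of 11 MHC class I heavy-chain genes were called higher. Among 14 sialyltransferase genes, St8sia1 and St8sia6 were called higher and St6gal1, St6galnac2 and St8sia4 lower.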
